A study of Homo sapiens with 12 samples.

Results

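The 10 genes described here form the core of the YAP-TEAD transcription axis and were listed by symbol: YAP1, WWTR1, TEAD1, CCN1, CCN2, ANKRD1, AMOTL2, AJUBA, LATS2 and CRIM1. They are 10 of the 24559 gene symbols in the deposited table, and all 10 were among the 16538 genes with enough counts to be tested. The study compared the mRNAs bound by several ribosomes (polysomes) in established human triple-negative breast cancer (TNBC) cell lines with altered levels of TRMT112, a cofactor that several RNA and protein methyltransferases need for activity. MDA-MB-231 and SUM159 cells carried either a lentiviral GIPZ plasmid with an shRNA against TRMT112 (KD) or the same plasmid with a non-silencing shRNA (EV), under puromycin selection. BT549 cells carried either the pReceiver-M02 plasmid with the TRMT112 open reading frame (OE) or the empty plasmid (EV), under G418 selection. Shortly before lysis all groups were exposed to cycloheximide, a translation inhibitor that holds ribosomes on mRNA. Each of the 6 groups had 2 libraries, and the deposited expected counts summed to between 22954226 and 27434677 per library. The labels do not say that the 2 libraries of a group came from separate cultures, so p-values measure the spread between these libraries, which may be technical.

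YAP1 and WWTR1 (which encodes TAZ) are coactivators without a DNA-binding domain of their own, and TEAD1 is one of the TEAD factors that bring them to DNA. The Hippo kinases LATS1 and LATS2 phosphorylate both coactivators and hold them in the cytoplasm, so that low cell density, stiff matrix or actin tension, which weaken these kinases, raise TEAD-dependent transcription. CCN1 and CCN2 encode secreted matricellular proteins and ANKRD1 encodes a nuclear ankyrin repeat protein, all widely read as reporters of this axis. AMOTL2, AJUBA and LATS2 encode regulators that act back on the pathway, and CRIM1 encodes a transmembrane protein that binds bone morphogenetic proteins. In breast cancer cells the axis is known for its links to growth, invasion and metastasis.

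TRMT112, the gene that was targeted, followed the labels in every library. Its TMM-normalized counts (counts scaled to a common library size) were 4147 and 3938 in MDA-MB-231 EV and 1764 and 1682 in KD, 6332 and 6566 in SUM159 EV and 3909 and 3699 in KD, and 3076 and 3087 in BT549 EV and 4286 and 4319 in OE. The TNBC markers VIM, CD44 and EGFR were present in all 12 libraries, whereas KRT8 and KRT18 were near 0 in BT549, at no more than 17.7 normalized counts in any of its 4 libraries. BT549 OE and EV also differed in markers of other programs. The summed level of 10 interferon-stimulated genes was 19838 to 19909 TPM (a length-corrected share of all transcripts) in EV and 176 to 189 in OE, and all 10 fell. That of 7 fibroblast markers, of which DCN and LUM were at 0 in EV, was 89.9 to 90 TPM in EV and 1048 to 1052 in OE, and 6 of the 7 rose. Of 8 genes listed to check the TNBC lines (VIM, KRT8, KRT18, EGFR and CD44, with ESR1, PGR and ERBB2 as genes that should be low), 7 had a row, and these summed to 2169.9 to 2183 TPM in EV and 877 to 889.5 TPM in OE. The part of these programs in the BT549 results below was not tested. In the KD lines the fibroblast sum was 5.68 to 7.14 TPM in MDA-MB-231 EV, 12 to 15.2 in MDA-MB-231 KD, 119 to 120.4 in SUM159 EV and 128 to 129 in SUM159 KD, where 2 of the 7 rose and 4 fell (median log2 fold change of -1.41). Of the interferon-stimulated genes 3 rose and 5 fell in SUM159 KD, and 5 rose and 3 fell in MDA-MB-231 KD. Over all genes tested, 60.1% were called in SUM159 and 37.7% in MDA-MB-231. The summed level of these genes went the other way from the counts. It was 1444 to 1476 TPM in SUM159 EV and 1616 to 1649 in KD. In MDA-MB-231 it was 414 to 421 TPM in EV and 340 to 352 in KD. The genes listed to check the TNBC lines summed to 2541 to 2563 TPM in SUM159 EV and 2023 to 2116 in KD. Of the 6 tested there, 1 was higher and 4 were lower. In MDA-MB-231 they summed to 2564 to 2623 TPM in EV and 2646 to 2674 in KD. The part of these markers in the KD results was not tested either. Endothelial and leukocyte markers summed to at most 3.92 TPM in any library. In bulk RNA of this kind, fewer cells of one type and less RNA per cell cannot be told apart, and without libraries of total RNA the amount of an mRNA cannot be told apart from its ribosome loading.

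The 10 genes did not move as one group with TRMT112. In MDA-MB-231, 5 were higher in KD than in EV polysomes, 3 were lower and 2 did not pass an adjusted p of 0.05 in edgeR's quasi-likelihood test, where 37.7% of all genes tested passed (21.2% higher and 16.5% lower). In SUM159, 5 were higher, 2 were lower and 3 did not pass, against 60.1% of all genes (28.6% higher and 31.4% lower). In BT549, 6 were higher and 4 were lower in OE, against 70.6% of all genes (35.6% higher and 35% lower). So 8, 7 and 10 of the 10 genes passed, in SUM159 and BT549 alongside most genes tested. The median log2 fold change of the 10 was 0.07 in MDA-MB-231, 0.02 in SUM159 and 0.21 in BT549, beside medians of 0.00, 0.00 and 0.02 over all genes tested. A change of at least 1 on the log2 scale was reached by 0 of the 10 genes in MDA-MB-231 (3.2% of all genes), by CCN1, CCN2 and ANKRD1 in SUM159 (15.7% of all genes) and by CCN2, ANKRD1 and CRIM1 in BT549 (31.3% of all genes). With scaling by library size alone, 36.7% of the genes called in MDA-MB-231 were higher instead of 56.2%, and TEAD1 and CRIM1 no longer passed there (log2 fold changes of 0.05 and 0.02, adjusted p of 0.225 and 0.691).

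**Figure D1:**
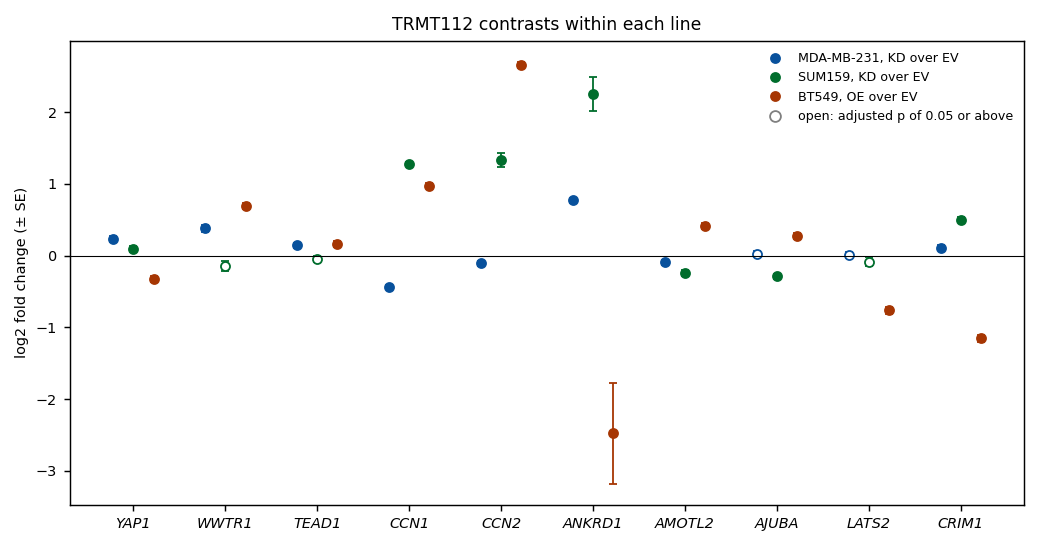
Log2 fold change (vertical axis) of each of the 10 genes in polysomes for TRMT112 KD over EV in MDA-MB-231 and SUM159 and OE over EV in BT549, with error bars of 1 standard error from the edgeR fit. Filled points passed an adjusted p of 0.05, and the changes of largest size belong to CCN1, CCN2, ANKRD1 and CRIM1, such as CCN1 at -0.43, 1.28 and 0.97 in the 3 lines.

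Of the coactivators, YAP1 (chr11:102110447-102233424, plus strand, GRCh38) rose slightly with KD and fell with OE. Its normalized counts were 3749.8 and 3976 in MDA-MB-231 EV and 4503 and 4563 in KD, 3803 and 3687 in SUM159 EV and 3969 and 4009.6 in KD, and 6399.9 and 6886 in BT549 EV and 5224 and 5362 in OE. The libraries of the groups compared did not overlap in any line. With 2 libraries a group, this alone does not show distinct levels, here or for the genes below. The log2 fold change was 0.23 (SE 0.04, adjusted p = 4.33e-05) in MDA-MB-231, 0.09 (SE 0.04, adjusted p = 0.0498) in SUM159 and -0.33 (SE 0.04, adjusted p = 4.49e-08) in BT549. The leading transcript, YAP1-201, was not called in any line when tested singly, with 0.00 (adjusted p = 1) in MDA-MB-231. The SUM159 value lies at the threshold and no longer passed when any 1 of the 4 SUM159 libraries was left out (adjusted p of 0.0685 to 0.299).

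WWTR1 (chr3:149517235-149736714, minus strand) rose in MDA-MB-231 KD and in BT549 OE. It stood at 1469 and 1386 normalized counts in MDA-MB-231 EV and 1859 and 1853 in KD, a log2 fold change of 0.38 (SE 0.05, adjusted p = 1.43e-06). Tested singly there, the leading transcript WWTR1-201 was not called (0.34, adjusted p = 0.0824). In BT549 the 2 EV libraries held 3747 and 3716 and the 2 OE libraries 6039.8 and 6033, a log2 fold change of 0.69 (SE 0.04, adjusted p = 3.79e-13). SUM159 had the lowest level, 681 and 596 in EV and 596 and 559.6 in KD, with a value of -0.15 (SE 0.07, adjusted p = 0.061) that did not pass, although it did without the second EV library (log2 fold change of -0.24, adjusted p = 0.00792) or without the first KD library (-0.19, adjusted p = 0.0474), with library size alone (-0.18, adjusted p = 0.02) and with no filter on low counts (-0.16, adjusted p = 0.0487).

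On the length-corrected TPM scale the balance of the coactivators differed between the lines. In EV libraries the ratio of YAP1 to WWTR1 TPM was 2.69 and 3.23 for MDA-MB-231, 6.46 and 5.86 for SUM159 and 1.79 and 1.93 for BT549. With KD it was 2.60 and 2.49 in MDA-MB-231 and 6.93 and 6.5 in SUM159. In BT549 OE it was 0.904 and 0.896, the only group in which WWTR1 had the higher TPM.

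TEAD1 (chr11:12674421-12944737, plus strand) was highest in MDA-MB-231, at 6708 and 6778 normalized counts in EV and 7416 and 7487 in KD, a log2 fold change of 0.14 (SE 0.03, adjusted p = 0.00152). In SUM159 the EV libraries held 2992 and 3147 and the KD libraries 2889 and 3059, which overlapped, with a log2 fold change of -0.04 (SE 0.04, adjusted p = 0.339). In BT549 it rose from 3003 and 3135 in EV to 3424 and 3435 in OE, a log2 fold change of 0.16 (SE 0.04, adjusted p = 0.000821). Tested singly, the leading transcript TEAD1-206 was not called in MDA-MB-231 KD (0.15, adjusted p = 0.479) or BT549 OE (0.23, adjusted p = 0.0658). The makeup of the TEAD family also differed between lines and groups. Among TEAD1 to TEAD4, TEAD1 held 27.9 and 28.1 percent of the summed TPM in MDA-MB-231 EV, 15.6 and 16.3 in SUM159 EV and 12.1 and 13.0 in BT549 EV. TEAD4 held 37.2 and 36.7 percent in MDA-MB-231 EV and 42.2 and 41.5 in KD, 43.9 and 42.2 in SUM159 EV and 29.0 and 27.3 in KD, and 43.7 and 43.6 in BT549 EV and 26.1 and 25.5 in OE. TEAD3 held 24.6 and 24.6 percent in SUM159 EV and 37.6 and 37.4 in KD. TEAD2 held 53.5 and 53.0 percent in BT549 OE against 38.0 and 37.4 in EV.

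**Figure D2:**
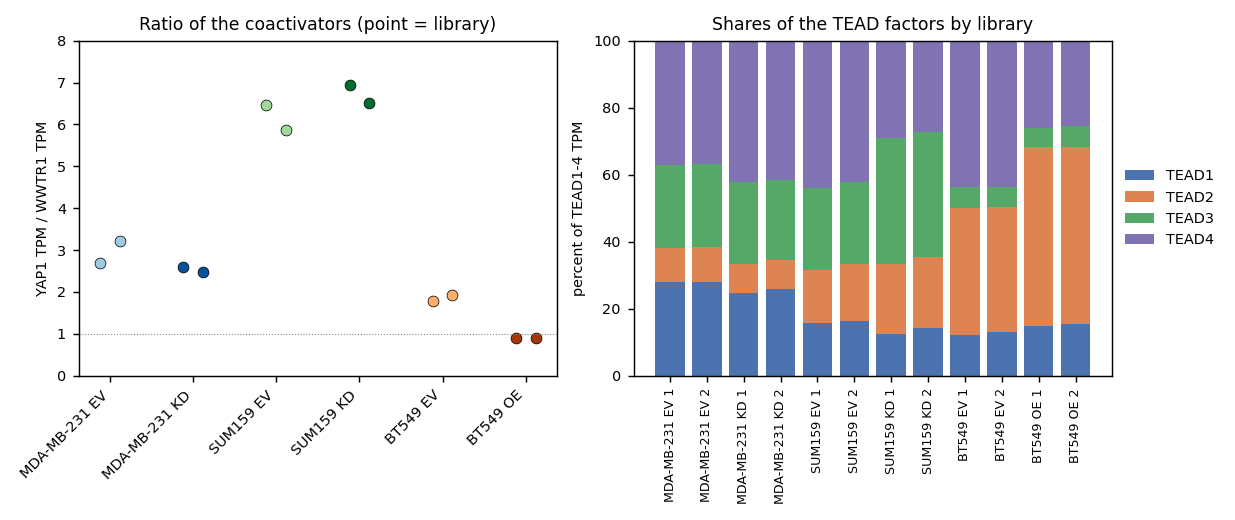
Left, ratio of YAP1 to WWTR1 in TPM for each library, with a dotted line at 1. Right, share of each TEAD factor in the summed TPM of TEAD1 to TEAD4, with 1 bar per library. SUM159 has the highest YAP1 to WWTR1 ratios, BT549 OE lies below 1, and TEAD2 holds 53.5 and 53.0 percent in the BT549 OE libraries.

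Each of the matricellular genes CCN1 and CCN2 went opposite ways in MDA-MB-231 KD and SUM159 KD, for CCN2 with only a small fall in MDA-MB-231. CCN1 (chr1:85580761-85584589, plus strand) was the most abundant of the 10 in MDA-MB-231, at 1388 TPM in EV. Its normalized counts were 37032 and 36399.7 in MDA-MB-231 EV and 27169 and 27238 in KD, so both KD libraries lay below both EV libraries, with a log2 fold change of -0.43 (SE 0.03, adjusted p = 3.77e-11). SUM159 started from 2784 and 2654 in EV and reached 6508 and 6671 in KD, a log2 fold change of 1.28 (SE 0.03, adjusted p = 3.48e-19). BT549 rose likewise with OE, from 3165 and 3148 to 6402 and 6002, a log2 fold change of 0.97 (SE 0.03, adjusted p = 1.67e-17). CCN1 was thus higher with less TRMT112 in SUM159 and higher with more TRMT112 in BT549.

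CCN2, which encodes connective tissue growth factor (chr6:131948176-131951372, minus strand), held 7894 and 8183 normalized counts in MDA-MB-231 EV and 7485 and 7423 in KD. This difference was small, with a log2 fold change of -0.11 (SE 0.03, adjusted p = 0.00998), and it did not pass with DESeq2 (adjusted p = 0.0515) or when the second EV, the first KD or the second KD library was left out (adjusted p of 0.053 to 0.165). In the fit over transcripts the only listed CCN2 transcript was not called there either (adjusted p = 0.224). In SUM159, where CCN2 was far lower, the counts went from 117 and 121 in EV to 308 and 292 in KD, a log2 fold change of 1.33 (SE 0.09, adjusted p = 1.65e-11). The change in BT549 was the largest rise among the 10 genes in that line, from 682 and 716 in EV to 4458 and 4359 in OE, a log2 fold change of 2.66 (SE 0.04, adjusted p = 1.26e-23). All groups were separated within each line. The ratio of CCN1 to CCN2 TPM was 4.76 and 4.51 in BT549 EV and 1.48 and 1.42 in OE, while SUM159 EV libraries had 24.4 and 22.6 and SUM159 KD libraries 21.7 and 23.5, where the mean normalized counts of CCN1 and CCN2 rose 2.42-fold and 2.53-fold.

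ANKRD1 (chr10:90912096-90921087, minus strand) had the widest range of the 10 genes. It stood at 8838 and 8807 normalized counts in MDA-MB-231 EV and 15038 and 15062 in KD, a log2 fold change of 0.77 (SE 0.03, adjusted p = 7.44e-14) and the largest of the 10 in that line. In MDA-MB-231 KD, ANKRD1 therefore rose while CCN1 fell, and CCN2 had only the small fall that several alternatives did not call. SUM159 EV held only 17.2 and 14.1 and KD 78.6 and 71.8, a log2 fold change of 2.25 (SE 0.24, adjusted p = 1.58e-08). In BT549 the gene was close to absent, with raw counts of 14 and 4 in EV and 2 and 1 in OE. Summed over the libraries and corrected for library size, EV held 5.90 times the OE count (95% exact interval 1.72 to 31.3, counting error only). The fitted value passed at an adjusted p of 0.0033 but not without the first EV library (adjusted p = 0.261). BT549 thus had CCN1 and CCN2 without appreciable ANKRD1.

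Promoter sequence is shown for CCN2 and ANKRD1 because these genes had the largest changes, rising together in SUM159 KD and parting in BT549 OE. For 7 of the 10 genes (YAP1, WWTR1, CCN2, ANKRD1, AMOTL2, AJUBA and LATS2) 10 promoter windows were found, each the 250 bases upstream of a RefSeq transcript start in GRCh38.p14. The letters GGAATG, a core bound by TEAD factors, were searched on both strands (CATTCC on the other) and stand in 11.9% of 35116 promoter windows of that length. The letters searched for AP-1, TGANTCA with any base at N, form a pattern that reads the same on both strands and stand in 6.57%. The stretches before CCN2 (chr6:131951373-131951622, minus strand) and ANKRD1 (chr10:90921088-90921337, minus strand) are given 5′ to 3′ in the direction of transcription, with TEAD and AP-1 letters in capitals.
CCN2: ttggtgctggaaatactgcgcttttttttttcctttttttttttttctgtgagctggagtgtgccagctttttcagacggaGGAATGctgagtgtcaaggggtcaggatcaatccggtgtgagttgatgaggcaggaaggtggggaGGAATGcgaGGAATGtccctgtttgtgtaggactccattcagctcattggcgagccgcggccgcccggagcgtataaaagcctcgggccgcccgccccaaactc
ANKRD1: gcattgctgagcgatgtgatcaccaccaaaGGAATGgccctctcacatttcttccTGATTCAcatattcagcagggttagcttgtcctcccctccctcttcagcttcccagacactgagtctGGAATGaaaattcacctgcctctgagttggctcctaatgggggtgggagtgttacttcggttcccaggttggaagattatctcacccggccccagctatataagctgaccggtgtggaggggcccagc
The CCN2 window holds GGAATG 3 times, beginning at positions -169, -104 and -95 from the start, and the ANKRD1 window holds it 2 times, at -220 and -128. Between these, at -195, stands TGATTCA, which meets the searched AP-1 pattern only because N allows any base, here T. None of these matches overlap each other.

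A single TEAD match was found in each of YAP1 (chr11:102110273-102110302, plus strand), AMOTL2 (chr3:134374499-134374528, minus strand) and AJUBA (chr14:22976884-22976913, minus strand), shown with the 12 bases on either side so that the coactivator and the feedback genes can be set beside the reporters.
YAP1: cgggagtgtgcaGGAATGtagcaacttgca
AMOTL2: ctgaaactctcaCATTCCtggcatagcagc
AJUBA: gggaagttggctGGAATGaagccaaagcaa
For AMOTL2 and AJUBA the match lay in 1 of 2 windows, in both cases the one before the more downstream start, and the letters lie within annotated exons of AMOTL2-209 and AMOTL2-210 and of AJUBA-202, transcripts that start further upstream. These letters were not in the windows of WWTR1 and LATS2. In all, 5 of the 10 windows held the TEAD letters. A match describes the sequence and was not tested as a binding site.

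Among the genes that act back on the pathway, AMOTL2, an angiomotin family scaffold that binds YAP (chr3:134355347-134375479, minus strand), fell in SUM159 KD and rose in BT549 OE. Its normalized counts were 2965 and 3043 in SUM159 EV and 2603 and 2483 in KD, a log2 fold change of -0.24 (SE 0.04, adjusted p = 9.53e-06). In BT549 they were 1258 and 1275 in EV and 1711 and 1662 in OE, a log2 fold change of 0.41 (SE 0.05, adjusted p = 3.1e-08). In MDA-MB-231 the values were 3280.4 and 3296 in EV and 3099 and 3053 in KD, and the log2 fold change of -0.10 (SE 0.04, adjusted p = 0.049) stood at the threshold. It did not pass there with RLE size factors, DESeq2 or no filter on low counts, or without any 1 of the 4 libraries (adjusted p of 0.118 to 0.23 for the libraries). The leading transcript, AMOTL2-202, was not called in any line when tested singly. It gave -0.38 (adjusted p = 0.147) in SUM159 KD, 0.12 (adjusted p = 0.641) in BT549 OE and -0.07 (adjusted p = 0.96) in MDA-MB-231 KD.

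AJUBA, a LIM domain protein that binds and restrains LATS kinases (chr14:22971177-22982551, minus strand), followed the same directions in SUM159 and BT549. It stood at 6955 and 6981 normalized counts in SUM159 EV and 5686 and 5723 in KD, a log2 fold change of -0.29 (SE 0.03, adjusted p = 1.81e-08), and at 1522 and 1572 in BT549 EV and 1879 and 1849.6 in OE, a log2 fold change of 0.27 (SE 0.04, adjusted p = 2.74e-06). In MDA-MB-231 the 6626 and 6777 counts of EV and 6786 and 6892 of KD gave 0.03 (SE 0.03, adjusted p = 0.496), which did not pass. Over the 12 libraries the log2 CPM (counts scaled to library size) of AMOTL2 and AJUBA had a Pearson r of 0.98, to which the differences between the 3 lines contribute.

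LATS2, a kinase that phosphorylates YAP and TAZ (chr13:20973036-21061586, minus strand), fell in BT549 OE. Its normalized counts were 2485 and 2497 in EV and 1533 and 1409 in OE, a log2 fold change of -0.76 (SE 0.05, adjusted p = 1.81e-12). The EV and KD libraries overlapped in both other lines, at 2937 and 3013 in MDA-MB-231 EV and 3004 and 2993 in KD, and at 700.4 and 757 in SUM159 EV and 663 and 706 in KD. The log2 fold changes there were 0.01 (SE 0.04, adjusted p = 0.893) and -0.09 (SE 0.06, adjusted p = 0.239).

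CRIM1 (chr2:36355778-36551135, plus strand) rose with KD in both lines and fell with OE. It held 3572 and 3635 normalized counts in SUM159 EV and 5059.8 and 5124 in KD, a log2 fold change of 0.50 (SE 0.04, adjusted p = 1.63e-11). In BT549 it went from 2048 and 2112 in EV to 915 and 953 in OE, a log2 fold change of -1.16 (SE 0.05, adjusted p = 2.54e-16), the largest fall among the genes with more than a few counts. The MDA-MB-231 change was small, from 5866 and 6117 to 6361 and 6578, with a log2 fold change of 0.11 (SE 0.03, adjusted p = 0.0113) that did not pass without the first EV library (adjusted p = 0.167) or the second KD library (0.131). Tested singly there, the leading transcript CRIM1-201 was not called (0.10, adjusted p = 0.253). ANKRD1 shared these directions in the 3 lines, with the low counts in BT549 given above.

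**Figure D3:**
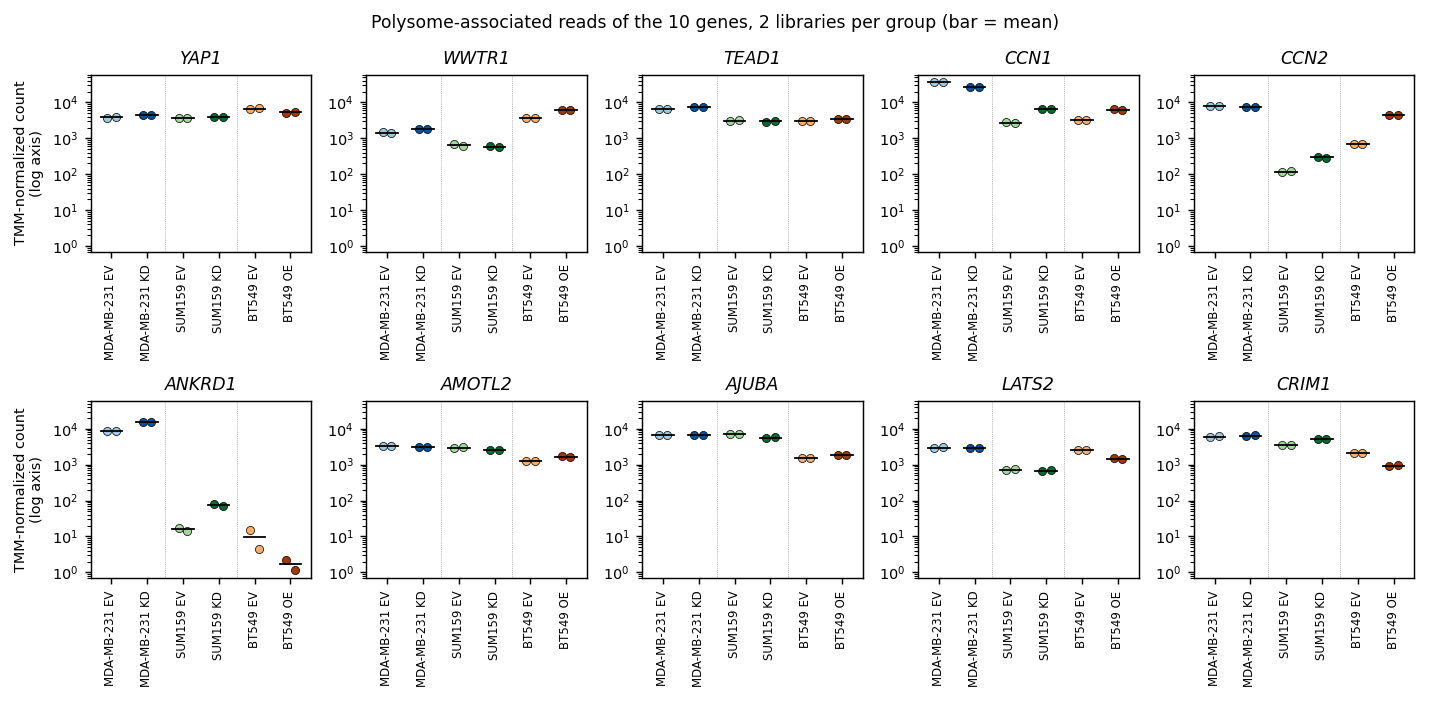
TMM-normalized counts of the 10 genes in each of the 12 libraries on a log axis, with points for libraries and a horizontal bar for the group mean. CCN2 and ANKRD1 span the widest ranges, from 1.13 to 15062 for ANKRD1, while YAP1 stays between 3687 and 6886.

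The KD effects of the lines were compared directly by an interaction contrast. It passed for 9 of the 10 genes, 5 with a higher value in MDA-MB-231 and 4 with a lower one, against 50.9% of all genes (27.7% and 23.2%). A difference of at least 1 on the log2 scale was reached by 3 of the 10, against 15% of all genes. CCN1 had the largest difference, -1.71 (SE 0.04, adjusted p = 6.57e-19) for MDA-MB-231 minus SUM159, followed by ANKRD1 at -1.48 (SE 0.25, adjusted p = 2.38e-05) and CCN2 at -1.44 (SE 0.10, adjusted p = 2.42e-11). For CCN1 and CCN2 the effects had opposite signs and both passed, although the small CCN2 fall in MDA-MB-231 did not pass under several alternatives. ANKRD1, by contrast, rose in both lines and CRIM1, with a difference of -0.39 (SE 0.05, adjusted p = 3.89e-07), did too. The ANKRD1 difference rests on raw counts of only 17 and 14 in SUM159 EV. On the other side stood WWTR1 (0.53, SE 0.08, adjusted p = 9.52e-06), AJUBA (0.32, SE 0.04, adjusted p = 1.23e-06) and TEAD1 (0.19, SE 0.05, adjusted p = 0.00345). The differences of YAP1 (0.14, adjusted p = 0.039) and AMOTL2 (0.15, adjusted p = 0.0287) did not pass with RLE size factors, library size alone, DESeq2, a mean of at least 50 counts or the lines fitted alone. They were also lost without each of several single libraries, 6 of 8 for YAP1 and 4 of 8 for AMOTL2. TRMT112 itself fell by more in MDA-MB-231 than in SUM159, with a difference of -0.47 (SE 0.06, adjusted p = 1.83e-07).

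The EV groups gave the order of the lines, in which line and culture medium cannot be told apart. Where BT549 is compared, plasmid and selection drug differ too, whereas MDA-MB-231 EV and SUM159 EV shared both. The medium was DMEM/F-12 for MDA-MB-231, the same with insulin and hydrocortisone for SUM159, and RPMI for BT549. BT549 medium also held a higher share of fetal bovine serum than that of the other lines. Compared with MDA-MB-231 EV, 0 of the 10 genes were higher in SUM159 EV, 8 were lower and 2 did not pass, against 75.7% of all genes (39.2% higher and 36.4% lower). The count of higher genes was also 0 at an unadjusted p under 0.05 in edgeR's quasi-likelihood test and 0 by DESeq2, but AJUBA was called higher when its leading transcript was tested singly (0.34, adjusted p = 7.22e-05). In BT549 EV 2 were higher and 8 lower than in MDA-MB-231 EV, against 79.5% of all genes (39.1% and 40.4%). Between BT549 EV and SUM159 EV 5 were higher in BT549, 3 lower and 2 not called, against 78.4% of all genes (37.7% and 40.7%). The median log2 difference of the 10 was -1.15 for SUM159 over MDA-MB-231 and -1.45 for BT549 over MDA-MB-231, beside 0.03 and -0.03 for all genes, and 0.11 beside -0.06 for BT549 over SUM159. Differences of at least 1 on the log2 scale were reached by 6, 8 and 5 of the 10 genes in the 3 contrasts, against 36.9%, 45.4% and 43.7% of all genes. These 3 contrasts share their EV libraries with each other and with the KD and OE contrasts. Scaling by library size alone shifted all genes by a median of -0.10, -0.31 and -0.21 in these 3 contrasts, and lowered the share of higher genes among those called in BT549 over MDA-MB-231 from 49.1% to 38.4%.

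The reporter genes set MDA-MB-231 apart. The log2 difference of ANKRD1 from MDA-MB-231 EV was -9.13 (SE 0.09, adjusted p = 2.59e-28) in SUM159 EV and -9.78 (SE 0.09, adjusted p = 1.99e-28) in BT549 EV. That of CCN2 was -6.08 (SE 0.06, adjusted p = 2.19e-28) and -3.52 (SE 0.04, adjusted p = 1.34e-26), and that of CCN1 -3.76 (adjusted p = 1.25e-28) and -3.54 (adjusted p = 1.5e-28). The coactivators did not share this order. YAP1 in SUM159 EV overlapped MDA-MB-231 EV, with a log2 difference of -0.04 (SE 0.04, adjusted p = 0.308) that did not pass here but did with RLE size factors (-0.11, adjusted p = 0.0168), library size alone, DESeq2, the lines fitted alone and the leading transcript tested singly. BT549 EV was higher than MDA-MB-231 EV by 0.78 (SE 0.04, adjusted p = 4.15e-15), which was not called for the leading YAP1 transcript (0.12, adjusted p = 0.266). WWTR1 was highest in BT549 EV, by 1.39 over MDA-MB-231 EV (SE 0.05, adjusted p = 2.69e-18) and 2.55 over SUM159 EV (SE 0.05, adjusted p = 3.15e-22). Summed per gene, BT549 EV thus had the most YAP1 and WWTR1 of the EV groups in polysomes, with ANKRD1 in the range of SUM159 EV, at a log2 difference of -0.65 (SE 0.40, adjusted p = 0.146).

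Among the regulators, AJUBA and AMOTL2 were lowest in BT549 EV, with log2 differences from MDA-MB-231 EV of -2.11 (SE 0.04, adjusted p = 4.77e-24) and -1.38 (SE 0.04, adjusted p = 5.68e-19). AJUBA in SUM159 EV was within 0.06 of MDA-MB-231 EV (SE 0.03, adjusted p = 0.0977), with the sign depending on the scaling, while AJUBA-201 alone was called higher there, as given above. LATS2 was lowest in SUM159 EV, at -2.03 (SE 0.05, adjusted p = 2.87e-20) against MDA-MB-231 EV. TEAD1 had means of 3069.5 and 3069 normalized counts in SUM159 EV and BT549 EV, although with library size alone it was called lower in BT549 EV (-0.21, adjusted p = 2.77e-05), with log2 differences from MDA-MB-231 EV of -1.14 (adjusted p = 1.79e-18) and -1.14 (adjusted p = 1.3e-18). Within MDA-MB-231 EV the order by TPM was CCN1 (1388), ANKRD1 (424), CCN2 (296), AJUBA (164), CRIM1 (94.5), YAP1 (82.3), AMOTL2 (76.1), TEAD1 (72.8), LATS2 (46.4) and WWTR1 (28.0). In BT549 EV the highest of the 10 was YAP1 at 113 TPM, with WWTR1 at 60.7, CCN2 at 19.6 and ANKRD1 at 0.361. Over all 6 groups, ranked by mean normalized count, neighbouring groups overlapped for YAP1 (SUM159 KD, MDA-MB-231 EV and SUM159 EV), TEAD1 (SUM159 EV, BT549 EV and SUM159 KD), ANKRD1 (SUM159 EV and BT549 EV) and LATS2 (KD and EV of MDA-MB-231 and of SUM159). A lack of overlap in the other genes does not show distinct levels, since a group has only 2 libraries. For WWTR1 in SUM159 the nearest libraries held 596.1 in EV and 595.8 in KD, and the change was not called. For AJUBA in MDA-MB-231 they held 6776.6 in EV and 6785.5 in KD, also not called.

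The table is per transcript, and for 5 of the 10 genes 1 transcript carried nearly all listed counts. Transcripts absent from all BT549 libraries are not listed, so the shares leave out any that only the other lines made. CCN2 and ANKRD1 had a single listed transcript, CCN1-201 held 96.8% to 99.3% of the CCN1 counts, and LATS2-201 and CRIM1-201 held at least 97.9% of theirs. AJUBA was divided between AJUBA-201, which runs from 22971177 to 22982551 on chromosome 14, and AJUBA-202, whose start lies further downstream (22971815 to 22977223, same strand). AJUBA-202 held 25.8% and 28.9% of the AJUBA counts in MDA-MB-231 EV and 15.5% and 17.2% in KD, and 9.16% and 7.69% in SUM159 EV and 4.32% and 3.87% in KD. The KD libraries lay below the EV libraries in both lines, but the test over transcripts, in which 64066 were tested, did not call AJUBA-202, at -0.72 (SE 0.48, adjusted p = 0.607) and -1.34 (SE 0.51, adjusted p = 0.133). AJUBA-201 was called in both, with log2 fold changes of 0.23 (SE 0.04, adjusted p = 0.00826) in MDA-MB-231 and -0.23 (SE 0.04, adjusted p = 0.00228) in SUM159.

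**Figure D4:**
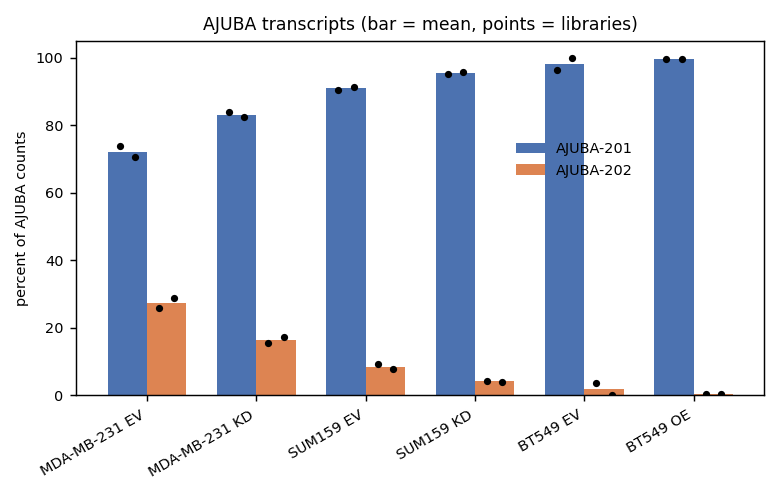
Share of AJUBA-201 and AJUBA-202 in the AJUBA counts (percent), with bars for group means and points for the 2 libraries of each group. AJUBA-202 is highest in MDA-MB-231 EV (25.8% and 28.9%) and lower in the KD group of each line.

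The YAP1 transcripts gave different values in BT549 OE, and the difference between them was not tested. YAP1-201, which held 36.9% and 38.8% of the counts in BT549 EV and 47.0% and 45.2% in OE, had a log2 fold change of -0.03 (SE 0.08, adjusted p = 0.87). YAP1-209 went from 22.7% and 19.4% to 15.1% and 12.8%, a log2 fold change of -0.91 (SE 0.23, adjusted p = 0.0175). For AMOTL2 the transcript AMOTL2-207, annotated with a retained intron, held 101 and 111 counts in BT549 EV and 222 and 311 in OE, a log2 fold change of 1.37 (SE 0.23, adjusted p = 0.00172), while the main coding transcript AMOTL2-202 gave 0.12 (SE 0.16, adjusted p = 0.641). TEAD1-206, the main TEAD1 transcript, fell in SUM159 KD by 0.28 on the log2 scale (adjusted p = 0.049), at the threshold. How reads shared by transcripts were divided was set by the authors' counting and could move these shares.

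The upstream Hippo kinases and scaffolds are 19 genes, most of which switch the axis off when active, while LIMD1 and WTIP belong to the LATS-restraining family of AJUBA. They gave 9 higher, 2 lower and 8 not called in MDA-MB-231 KD, 4 higher, 13 lower and 2 not called in SUM159 KD, and 6 higher, 11 lower and 2 not called in BT549 OE, where 37.7%, 60.1% and 70.6% of all genes were called. Their median log2 fold changes were 0.11, -0.27 and -0.15, beside 0.00, 0.00 and 0.02 over all genes. In MDA-MB-231 KD, NF2, the scaffold that recruits LATS kinases to the membrane, had a log2 fold change of -0.47 (adjusted p = 9.98e-07) and WTIP, an AJUBA relative, -0.48 (adjusted p = 0.00269), while the kinases TAOK1 and TAOK2 rose by 0.39 and 0.38 on that scale, in which the values in parentheses below are also given. SUM159 KD had falls of AMOTL1 (-0.88, adjusted p = 1.28e-11), LATS1 (-0.78, adjusted p = 7.28e-07) and STK3, which encodes MST2 (-0.73, adjusted p = 1.59e-07). AMOT there had 23 and 23 raw counts in EV and 0 and 2 in KD, a ratio of EV to KD of 24.9 (95% exact interval 6.51 to 212). In normalized counts, NF2 went up in SUM159 KD from 2988 and 3034 to 4469 and 4347, and TAOK2 from 793 and 835 to 1264 and 1319. TAOK1 went down there from 1524 and 1551 to 1333 and 1419, and WTIP from 101 and 103 to 79.6 and 60.5. NF2 was also higher in BT549 OE, at 4074 and 4331 against 3692 and 3783 in EV. In BT549 OE, WWC2 fell (-1.20, adjusted p = 7.7e-16), as did TAOK3 (-1.02, adjusted p = 3.77e-09), and AMOT (2.65, adjusted p = 6.06e-10) and WTIP (1.06, adjusted p = 2.91e-09) rose.

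Of 5 tested TEAD paralogues and cofactors, 4 were higher and 1 not called in MDA-MB-231 KD, and 3 were higher, 1 lower and 1 not called in both SUM159 KD and BT549 OE. The list medians were 0.28, 0.56 and 0.39, beside 0.00, 0.00 and 0.02 over all genes, of which 37.7%, 60.1% and 70.6% were called. VGLL3, a vestigial-like cofactor that binds TEAD factors in place of YAP, rose in all 3 contrasts, from 218 and 280.3 to 341 and 346 normalized counts in MDA-MB-231, from 1233 and 1228 to 3168 and 3292 in SUM159 and from 8.76 and 14.4 to 1814 and 2015 in BT549. Its log2 fold changes were 0.46 (adjusted p = 0.00106), 1.39 (adjusted p = 3.07e-15) and 7.36 (adjusted p = 4.41e-22). TEAD4 rose in MDA-MB-231 KD (0.47, adjusted p = 6.05e-08) and fell in SUM159 KD (-0.45, adjusted p = 6.99e-08) and BT549 OE (-0.87, adjusted p = 8.01e-13). TEAD3 rose with KD in both lines (0.28, adjusted p = 1.68e-05, and 0.79, adjusted p = 1.75e-13), TEAD2 rose in SUM159 KD (0.56, adjusted p = 5.43e-09) and BT549 OE (0.39, adjusted p = 7.76e-08), and VGLL4, a cofactor that competes with YAP, rose in MDA-MB-231 KD (0.25, adjusted p = 0.00365) and BT549 OE (1.52, adjusted p = 1.77e-17).

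A further 16 genes known as YAP-TEAD targets were also divided in direction. They gave 7 higher, 4 lower and 5 not called in MDA-MB-231 KD, 8, 6 and 2 in SUM159 KD, and 6, 6 and 4 in BT549 OE, with median log2 fold changes of 0.09, 0.16 and 0.01. Over all genes tested, 37.7%, 60.1% and 70.6% were called and the medians were 0.00, 0.00 and 0.02. NT5E, the ecto-nucleotidase CD73, rose in MDA-MB-231 KD from 8767 and 9094 to 15001 and 14833 normalized counts (0.74, adjusted p = 1.52e-14) and fell in BT549 OE from 18289.7 and 18251 to 1887 and 1863 (-3.28, adjusted p = 4.16e-27). In SUM159 KD, F3, which encodes tissue factor, rose from 451 and 436 to 1683 and 1814 (1.98, adjusted p = 7.96e-17), and TGFB2 rose from 297 and 277 to 925 and 1008 (1.75, adjusted p = 6.17e-16), beside CCN1, CCN2 and ANKRD1. The transcription factor FOXF2 fell with KD in both lines (-0.60, adjusted p = 0.000412, and -1.24, adjusted p = 1.09e-10). IGFBP3 rose in MDA-MB-231 KD (0.57, adjusted p = 4.2e-09), while in SUM159 it had 34 and 30 raw counts in EV and 2 and 1 in KD, a ratio of EV to KD of 23.1 (95% exact interval 7.55 to 115). In BT549 OE, RBMS3 (2.16, adjusted p = 7.45e-13) and CCDC80 (1.99, adjusted p = 4.62e-20) rose and NUAK2 fell (-1.94, adjusted p = 1.36e-07).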

How the data were processed

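Polysome fractions of sucrose gradients were pooled and sequenced from 12 libraries of 3 TNBC cell lines, in 6 groups named by the labels. The labels name a poly(A) kit and the study's methods a kit for total RNA depleted of ribosomal RNA. The authors used Trimmomatic for trimming, HISAT2 with GRCh38 for alignment and SAMtools to drop duplicates, but the counting tool, its annotation and its strand setting are not given in the sources used here. The authors deposited 1 table of expected counts for 201932 Ensembl transcripts, in which 3.10% of the values above 0 were exactly whole numbers. In 10254 rows the 8 columns of MDA-MB-231 and SUM159 held a missing mark, read as 0, and these rows carried 0.121% of the BT549 counts. No transcript was at 0 in all 4 BT549 libraries, so mRNAs and single transcripts absent from BT549 are not in the table. Gene sums of MDA-MB-231 and SUM159 may lack such transcripts. Library totals ran from 22954226 to 27434677. Intervals on low counts (95%, exact) cover counting error only.

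Transcripts were named by GENCODE 44 (79.6% of them, with 99.2% to 99.4% of the counts), summed per gene symbol and rounded, and 111 symbols joined more than 1 gene. Genes passing edgeR's filterByExpr (16538) were scaled by TMM and fitted with 6 group means over all 12 libraries by edgeR's quasi-likelihood test (edgeR 4.0.16, R 4.3.3), with Benjamini-Hochberg adjustment over all genes and a call at an adjusted p under 0.05. TMM-normalized counts are counts scaled to the mean effective library size, the SE is the log2 fold change divided by the root of its F statistic, and TPM was computed with GENCODE lengths. Because scaling is relative, a change that all mRNAs share would not appear. The 64066 transcripts tested singly had a fit of their own. The code was tested on simulated data. Tables were read with Python 3.11.15 and pandas 2.3.3.

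The 10 genes and all lists were chosen with earlier results of these data known. Of other lists, the genes named are, in each contrast, the 4 called ones with the largest absolute changes whose mean count was 50 or more, all AP-1 and CCN genes above that mean, and for each of the 10 the gene with the highest Pearson r over the libraries. Of these, 1 gene is not reported here. The transcripts AJUBA-202, YAP1-209, AMOTL2-207 and TEAD1-206 were chosen after their values were seen. Alternatives were RLE size factors, library size alone, DESeq2 1.42.0, a cut at a mean count of 50, no filter, marked transcripts left out, the lines fitted alone, the leading transcript tested singly, a replicate block and each library left out. Same-numbered libraries did not deviate together (correlations of 0.00, -0.03 and 0.02 in the 3 lines).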

Additional observations from a re-analysis of the deposited data

Results flagged for a closer look

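Of the 10 genes, 9 had a KD effect that differed between MDA-MB-231 and SUM159 in the interaction contrast of edgeR's quasi-likelihood fit, in which 50.9% of all genes did so. The differences, MDA-MB-231 minus SUM159 on the log2 scale, were -1.71 for CCN1, -1.48 for ANKRD1, -1.44 for CCN2 and -0.39 for CRIM1, whose effect was the higher one in SUM159. They were 0.53 for WWTR1, 0.32 for AJUBA, 0.19 for TEAD1, 0.15 for AMOTL2 and 0.14 for YAP1, with the higher effect in MDA-MB-231. TRMT112 fell by 1.23 on the log2 scale in MDA-MB-231 and by 0.76 in SUM159, and the part of this difference in the results was not tested.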

How the results depend on the processing

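Of 949 log2 fold changes of the 10 genes under 21 alternatives, 859 kept their direction and side of the threshold, 57 lost their call, 14 gained one and 19 changed sign, and 45 of 70 results were the same under every alternative. Members called higher in MDA-MB-231 KD numbered 3 with library size alone, and those called lower numbered 1 with DESeq2. For the KD difference, 3 were called higher with RLE size factors, library size alone, DESeq2, a mean of at least 50 counts or the lines fitted alone. With single libraries left out, members called in MDA-MB-231 KD ranged from 4 to 5 higher and 1 to 2 lower, in SUM159 KD from 4 to 4 higher and 2 to 3 lower, in BT549 OE from 3 to 4 lower, and in the KD difference from 3 to 5 higher.

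The sign changes were of values that had not passed, other than the YAP1 KD difference. In MDA-MB-231 KD they were AJUBA at -0.0608 and LATS2 at -0.0787 with library size alone, and LATS2 at -0.00304 with a mean of at least 50 counts, -0.00078 with the lines fitted alone and -0.00889 to 0.0341 without single libraries. In SUM159 KD, TEAD1 was 0.00975 with RLE and 0.00979 with DESeq2. The YAP1 KD difference was -0.10 for its leading transcript. Between SUM159 EV and MDA-MB-231 EV, AJUBA was -0.00604 with RLE, -0.0457 with library size alone, -0.00605 with DESeq2 and -0.00469 with the lines fitted alone, and YAP1 ranged from -0.0886 to 0.00143 without single libraries. Between BT549 EV and SUM159 EV, TEAD1 was 0.078 with RLE and with DESeq2, 0.00722 with the lines fitted alone, 0.056 for its leading transcript and -0.0362 to 0.0352 without single libraries. With library size alone TEAD1 kept its sign there and gained a call (-0.213). The cause was not tested. CCN1 lost its call between these groups with library size alone (0.00, adjusted p = 0.957), and ANKRD1 gained one without the first BT549 EV library (-1.79, adjusted p = 0.00887).

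With the replicate number as a block, the count of members called was the same as without it in each comparison, 5 higher and 3 lower in MDA-MB-231 KD, 5 and 2 in SUM159 KD, and 6 and 4 in BT549 OE, and the numbers did not pair the libraries. With 2 libraries a group, calls of small changes depended on scaling, and low counts limit ANKRD1 in BT549 and in SUM159 EV.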

Other observations

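The AP-1 subunits, which bind many enhancers together with TEAD factors, moved in different directions (log2 fold changes in parentheses). Of 7 tested, 1 was higher and 3 lower in MDA-MB-231 KD, 3 higher and 3 lower in SUM159 KD, and 3 higher and 3 lower in BT549 OE, with median log2 fold changes of -0.15, -0.18 and -0.04. Over all genes tested, 37.7%, 60.1% and 70.6% were called and the medians were 0.00, 0.00 and 0.02. FOSL1, which encodes FRA1, held 3928 and 3899.6 normalized counts in SUM159 EV and 7448 and 7360.1 in KD (0.92, adjusted p = 1.64e-16), and 9936 and 9322 in BT549 EV and 2699.9 and 2629 in OE (-1.85, adjusted p = 2.31e-22). JUN rose in SUM159 KD (1.27, adjusted p = 6.34e-17) and fell in MDA-MB-231 KD (-0.14, adjusted p = 0.0103) and BT549 OE (-0.49, adjusted p = 3.43e-11). FOS, with few counts, fell in SUM159 KD from 36.3 and 41.2 to 14.1 and 22.5 (-1.06, adjusted p = 0.00519), rose in BT549 OE from 32.8 and 36.5 to 77.5 and 89.4 (1.26, adjusted p = 0.000192) and was not called in MDA-MB-231 KD (-0.46, adjusted p = 0.13). JUND also rose in SUM159 KD (1.12, adjusted p = 4.24e-17) and JUNB fell (-1.51, adjusted p = 1.7e-16), while in MDA-MB-231 KD both fell (-0.41, adjusted p = 2.18e-07, and -0.31, adjusted p = 0.000187) and FOSL2 rose (0.36, adjusted p = 1.58e-08).

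Of the other CCN family genes, 3 were tested. CCN3 fell in MDA-MB-231 KD (-0.73, adjusted p = 7.22e-05), rose in SUM159 KD (0.98, adjusted p = 2.09e-09) and fell in BT549 OE (-3.00, adjusted p = 2.89e-20), where CCN1 and CCN2 rose. CCN5 rose in SUM159 KD (1.94, adjusted p = 8.25e-19) and was not called in MDA-MB-231 (-0.55, adjusted p = 0.109) or BT549 (0.04, adjusted p = 0.881). CCN4 rose in SUM159 KD (0.34, adjusted p = 2.64e-05). In BT549 it was at 0 in both EV libraries and at a mean of 451 normalized counts in OE, at least 137-fold higher against a floor of 3 counts per library.

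For each member, the gene whose log2 CPM followed it most closely over the 12 libraries was picked from 12512 compared. These were TPM3 for YAP1 (Pearson r of 0.98), BCAR1 for WWTR1 (0.99), SMYD5 for TEAD1 (0.996), RHOF for CCN1 (0.99) and SERTAD2 for ANKRD1 (0.996). Further ones were KCNK1 for AMOTL2 (0.99), RPIA for AJUBA (0.998), ROBO4 for LATS2 (0.99) and KRT86 for CRIM1 (0.998), with an unnamed gene (ENSG00000285043) for CCN2 (0.99). The points share 3 cell lines, and differences between the lines enter each r.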
